A study of Mus musculus with 50 samples.

Results

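Input RNA of the whole nucleus accumbens (NAc) was compared between mice that were susceptible (Sus) and mice that were resilient (Res) to chronic social defeat stress (CSDS). The comparison rests on 12 of the 50 samples of the series, chosen by their labels: 6 Sus and 6 Res input libraries, 3 of each from the D1 line and 3 of each from the D2 line. The 6 input libraries of undefeated control mice (Con) served as a reference, and the line was kept as a covariate. All mice were male C57BL/6 animals of 8 to 12 weeks, with the Cre lines on a C57BL/6J background, that carried the RiboTag (RT) allele, a floxed *Rpl22* allele that adds an HA tag in cells with Cre recombinase, together with a D1-Cre (RT; D1-Cre) or D2-Cre (RT; D2-Cre) BAC transgene. Con, Res and Sus mice alike carried these alleles. Defeated mice met an aggressive CD1 male once a day over 10 days, for 10 min by the sample labels (the methods text gives a shorter bout), and were sorted by a social interaction test 24 h after the last defeat. Con mice were housed in the same kind of cage with mice of their own strain. Each library was made from NAc punches of 2 pooled mice, so that every value is the average of a pair of animals, and the pools of a group carry separate replicate labels. For the D1 and the D2 line the input is the same kind of RNA, the cleared tissue homogenate before precipitation, with mRNA of every cell type of the punch.

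The NAc is the ventral part of the striatum, and most of its neurons are GABAergic medium spiny neurons (MSNs) with D1 or D2 dopamine receptors. The same tissue holds interneurons, astrocytes, oligodendrocytes and their precursors, microglia and blood vessels, whose endothelial cells are sealed by tight junctions and form the blood-brain barrier. After CSDS, mice of 1 inbred strain divide into those that avoid an unfamiliar mouse and those that still approach it. Input RNA asks whether that division goes with RNA levels in the tissue as a whole, where a change in a rare cell type is diluted by all others.

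Between 18384265 and 28179940 counts fell on genes in the 12 libraries, and between 18650045 and 24825274 in the Con inputs. *Xist*, an RNA of the female inactive X chromosome, had at most 8 counts in any input, and markers of MSNs were abundant in all of them. Tissue content differed between libraries within groups. The summed level of 12 markers of cortical and other glutamatergic neurons, cells that an accurate NAc punch largely lacks, ran from 389.7 CPM (counts scaled to the effective size of the library) in D2 Sus replicate 1 to 1777 CPM in D1 Res replicate 3, a 4.56-fold range, and all 12 markers were detected. In a multidimensional scaling plot of the inputs, the first dimension (27.8% of the variance) had D2 Sus replicate 1 at one end, at 1.18, and D2 Sus replicate 3, at -0.94, and D1 Res replicate 3, at -0.92, at the other. The defeat batch and the sequencing set of each library are not given in the sources used here, so their part in any difference cannot be told apart from the groups.

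Sus and Res inputs differed little. Of 14716 genes tested, 818 passed an unadjusted p of 0.05 (5.56%), where a p under 0.05 is reached by 736 genes if no gene differs. Of these, 456 were higher (3.1% of the genes tested) and 362 were lower in Sus (2.46%). None passed an adjusted p of 0.05, and the smallest adjusted p was 0.899 (edgeR's quasi-likelihood test with Benjamini-Hochberg adjustment), while DESeq2 found 766 genes at an unadjusted p under 0.05 and 0 after adjustment. Genes are therefore called higher or lower below when their unadjusted p is under 0.05, and none of these calls withstood correction over all genes: the adjusted p of every one was 0.899 (edgeR). Each difference is therefore given with its 95% interval or standard error from the same model. The called differences were small: their median was 0.16 on the log2 scale, 600 of the 818 (73.3%) were under 1.2-fold, 76 were over 1.5-fold and 14 were over 2-fold. The median standard error of a log2 fold change was 0.08, so that a change of this typical size lies close to the limit of what 6 against 6 pools resolve. In 35 of the 14716 genes (0.238%) every Sus library lay on the same side of every Res library.

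The genes with the smallest p among those higher in Sus had mostly moderate levels and differences of 0.12 to 0.33 on the log2 scale. *Slc38a9*, which encodes a lysosomal amino acid transporter that signals arginine to mTORC1 (chromosome 13, 112660751 to 112738749, plus strand of GRCm38), had a lowest, median and highest level of 34.3, 35.5 and 37.5 CPM in Sus against 31.6, 31.9 and 32.7 CPM in Res. The groups did not overlap, and Con ran from 30.8 to 34.3 CPM. The log2 difference of Sus from Res was 0.16 (95% interval 0.08 to 0.24), with 0.16 ± 0.06 (SE) in the D1 line and 0.15 ± 0.06 in the D2 line. *Tiparp*, a mono-ADP-ribosyltransferase induced through the aryl hydrocarbon receptor (chromosome 3, 65528410 to 65555518, plus strand), had 20.6, 22.99 and 26.3 CPM in Sus and 15.8, 19.0 and 20.2 CPM in Res, again without overlap. Its log2 difference of 0.33 ± 0.08 (SE) came with Con levels of 18.6 to 26.1 CPM that overlapped both groups, and Res was called lower than Con (-0.25). *Cdyl2*, which encodes a chromodomain protein (chromosome 8, 116574400 to 116732991, minus strand), had 27.2, 28.2 and 31.2 CPM in Sus, 24.3, 25.7 and 26.2 CPM in Res and 22.8, 24.1 and 25.6 CPM in Con. Sus lay above every Res and every Con library for this gene, with a log2 difference of 0.18 from Res (95% interval 0.08 to 0.28) and 0.26 from Con (adjusted p = 0.228 by edgeR). *Brca2*, which encodes a DNA repair protein of homologous recombination (chromosome 5, 150522630 to 150570329, plus strand), had 7.44, 8.58 and 8.96 CPM in Sus against 5.98, 6.85 and 7.63 CPM in Res, and 1 Res library exceeded the lowest Sus library (log2 difference 0.31, 95% interval 0.14 to 0.47).

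Further genes higher in Sus were *Mdga2* (log2 difference 0.15), an adhesion molecule that binds neuroligins at synapses, *Rab39b* (0.17), a neuronal small GTPase, *Zfp800* (0.27), a zinc finger gene, *Mtr* (0.26), methionine synthase, *Maml1* (0.22), a coactivator of Notch signalling, *Arfip1* (0.24), arfaptin 1 of the Golgi, *Zcchc11* (0.12), a uridylyltransferase that tails RNA, and *BC030336* (0.18). *Asb3* was 0.27 higher over both lines but stood at 0.45 ± 0.09 (SE) in the D1 line and 0.09 ± 0.09 in the D2 line. The widest interval belonged to the lincRNA *1110015O18Rik*, at 0.92, 1.65 and 1.87 CPM in Sus and 0.27, 0.62 and 1.35 CPM in Res (log2 difference 1.05 ± 0.29).

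**Figure D1:**
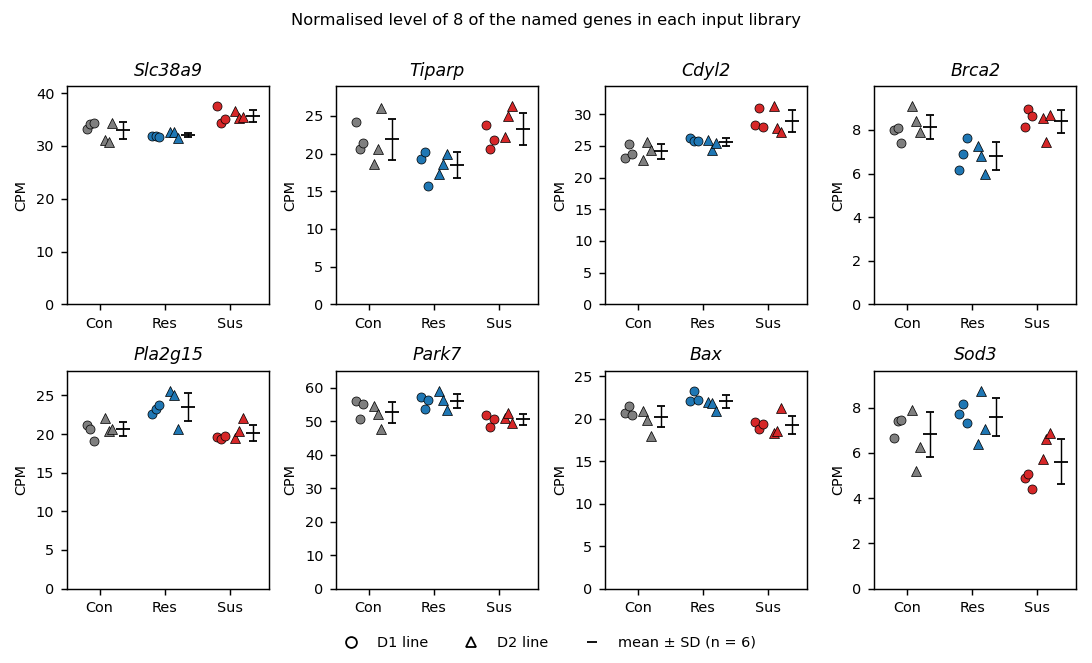
Normalised level (CPM, y axes from 0) of 8 named genes in each of the 18 inputs, by stress group, with circles for the D1 line and triangles for the D2 line and the mean ± SD of 6 libraries beside each group. *Slc38a9*, *Tiparp* and *Cdyl2* are higher and *Park7* lower in every Sus library than in any Res library, whereas *Brca2*, *Pla2g15*, *Bax* and *Sod3* overlap.

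Among the genes lower in Sus, *Pla2g15*, a lysosomal phospholipase A2 (chromosome 8, 106150399 to 106164715, plus strand), had the smallest p of all genes tested. Its levels were 19.4, 19.7 and 22.1 CPM in Sus and 20.7, 23.5 and 25.6 CPM in Res, which overlapped. The log2 difference was -0.23 (95% interval -0.34 to -0.11). Res was called higher than Con (0.19), while Sus minus Con was -0.04 and not called. *Park7*, which encodes DJ-1, a protein that protects cells from oxidative stress (chromosome 4, 150897133 to 150914437, minus strand), had 48.1, 50.7 and 52.4 CPM in Sus and 53.4, 56.4 and 59.1 CPM in Res. The groups did not overlap, the log2 difference was -0.15 ± 0.04 (SE), and the estimate was the same in the D1 line (-0.15) and the D2 line (-0.15). *Bax*, a pore-forming protein of apoptosis, had 18.3, 19.0 and 21.2 CPM in Sus and 20.9, 22.0 and 23.3 CPM in Res (log2 difference -0.19, 95% interval -0.30 to -0.09). *Sod3*, the extracellular superoxide dismutase, had 4.39, 5.41 and 6.88 CPM in Sus and 6.37, 7.52 and 8.75 CPM in Res. Its difference was -0.69 ± 0.15 (SE) in the D1 line and -0.21 ± 0.15 in the D2 line, and it was called in the line-by-stress interaction (adjusted p = 0.999 by edgeR).

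The other genes of this direction included *Chmp1a* (log2 difference -0.18) of the ESCRT-III complex, *Pgs1* (-0.14), which makes a precursor of cardiolipin, *Ncln* (-0.15), a membrane protein of the endoplasmic reticulum, *Flad1* (-0.18), FAD synthase, *Ppp1r16a* (-0.14), a subunit of protein phosphatase 1, *Hdac10* (-0.35), a polyamine deacetylase, *Armc7* (-0.43) and *1700003E16Rik* (-0.27). Low levels went with wide intervals here too. *Tlr9*, an endosomal receptor for DNA, was at 0.65 to 1.05 CPM in Sus and 1.01 to 1.93 CPM in Res (-0.73 ± 0.21), and the lincRNA *C030018K13Rik* was at 1.49 to 2.28 CPM and 1.87 to 3.40 CPM (-0.64 ± 0.17). *2810029C07Rik*, annotated as a noncoding RNA from a bidirectional promoter, differed by -0.25.

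**Figure D2:**
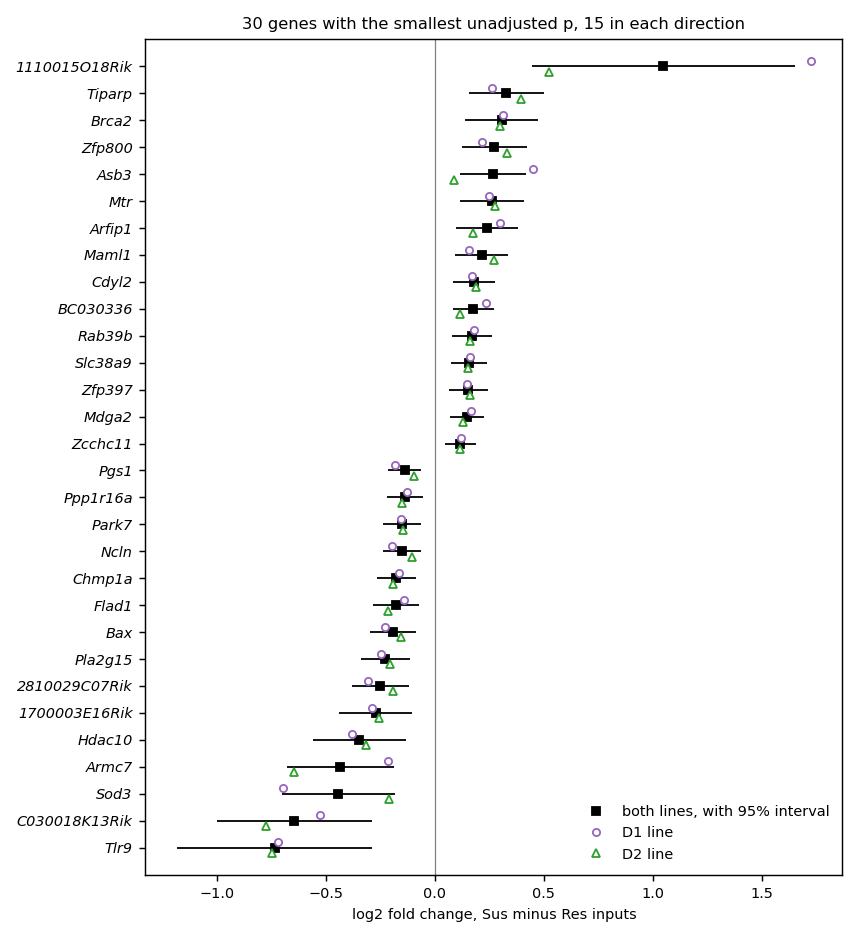
Log2 fold change of Sus minus Res inputs (x axis) for the 30 genes with the smallest unadjusted p, 15 in each direction, with squares and 95% intervals for both lines together, circles for the D1 line and triangles for the D2 line. 18 of the 30 differ by less than 1.2-fold, and the lines lie farthest apart for *1110015O18Rik*, *Sod3*, *Armc7* and *Asb3*.

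Because these 30 genes were chosen by their p in this comparison, their counts within it are descriptions. All 30 had the same sign in the D1 and the D2 line, 17 were called in each line separately (5.6% of all genes were in the D1 line and 2.78% in the D2 line), and 10 had groups that did not overlap (0.238% of all genes), 7 of them higher in Sus. Against Con, with its own libraries shared by both comparisons, 11 of the 30 were called in Sus vs Con and 13 in Res vs Con. Over all genes, 660 (4.48%) were called in Sus vs Con and 474 (3.22%) in Res vs Con. The Sus and Res libraries by which the 30 genes were chosen enter these comparisons too. The counts of 11 and 13 are therefore descriptions as well, not separate support. A separate readout of these genes was the RNA bound to HA-tagged ribosomes in D1-MSNs or D2-MSNs (IP samples), part of it from the same homogenates. Of 28 genes tested there, 1 was called between D1-IP Sus and Res (4.23% of all genes were) and 2 between D2-IP Sus and Res (1.66% of all genes were). *Ppp1r16a* was lower in D1-IPs (log2 difference -0.14 ± 0.07, SE) and *Brca2* was higher in D2-IPs (0.33 ± 0.13), as in the inputs, whereas *Flad1* was higher in D2-IPs (0.14 ± 0.06), opposite to the inputs. The sign matched that of the inputs for 18 of the 28 in D1-IPs and 14 of the 28 in D2-IPs.

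Vascular genes made up the cell type list with the most calls. Of 10 markers of endothelial cells and tight junctions, 5 were called higher in Sus (against 3.1% of all genes called higher) and 0 lower. The median log2 difference of the list was 0.18, against 0.00 over all genes tested. The 5 were *Flt1*, a VEGF receptor, *Ly6c1*, a surface antigen of brain endothelium, the tight junction genes *Ocln* (occludin) and *Tjp1* (ZO-1), and *Esam*, an endothelial adhesion molecule. *Flt1* had 37.0, 39.4 and 47.0 CPM in Sus and 29.97, 34.7 and 42.3 CPM in Res (log2 difference 0.20, 95% interval 0.04 to 0.36). *Ly6c1* had 10.4, 12.6 and 21.6 CPM in Sus and 9.62, 10.1 and 12.0 CPM in Res (0.38, 95% interval 0.12 to 0.63), with the value of 21.6 CPM in D2 Sus replicate 2. *Esam* had 6.41, 6.66 and 7.08 CPM in Sus and 4.41, 5.74 and 6.13 CPM in Res (0.29, 95% interval 0.07 to 0.52). *Esam* alone of the 5 had groups that did not overlap, and its Con libraries, at 5.19 to 7.84 CPM, overlapped both groups. Res was called lower than Con for this gene.

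*Ocln* had 4.70, 5.23 and 5.74 CPM in Sus and 2.53, 4.38 and 5.78 CPM in Res (0.34, 95% interval 0.05 to 0.64). *Tjp1*, which neurons and glia express as well, had 112, 117 and 126 CPM in Sus and 106, 110 and 115 CPM in Res (0.09, 95% interval 0.02 to 0.17). The remaining markers were not called. *Cldn5*, the main claudin of the blood-brain barrier, differed by -0.01 (95% interval -0.19 to 0.17) and *Pecam1*, a general endothelial marker, by -0.01 (-0.24 to 0.21). *Slco1a4*, a barrier transporter, differed by 0.17 (-0.01 to 0.34), *Tek*, the angiopoietin receptor, by 0.22 (-0.01 to 0.44) and *Cdh5*, VE-cadherin, by 0.08 (-0.15 to 0.32). In bulk tissue, fewer cells of a type and less RNA per cell cannot be told apart.

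Lines and single libraries bore on the vascular genes. In the D2 line alone, 6 of the 10 were called higher (*Flt1*, *Ly6c1*, *Tek*, *Cdh5*, *Ocln* and *Tjp1*), where 1.46% of all genes were, with a list median of 0.28. In the D1 line the list had 0 calls, where 5.6% of all genes were called in either direction, and a median of 0.10. The line-by-stress interaction was called for *Cdh5* and *Pecam1*, with adjusted p = 0.999 for both (edgeR). *Adgrl4*, another endothelial receptor, which was picked after its values were seen, differed by 0.49 ± 0.11 (SE) in the D2 line and 0.07 ± 0.11 in the D1 line, and its interaction was called too. The summed level of the 10 markers was 251.4 to 278.9 CPM in Sus, 218.7 to 258.8 CPM in Res and 242.8 to 252.9 CPM in Con, so that 2 of the Res libraries, D2 Res replicates 1 and 2 at 221.1 and 218.7 CPM, lay lowest. With each of the 12 libraries left out in turn, 4 to 7 of the 10 were called, and the call of *Ocln* was lost without D1 Res replicate 3 and that of *Flt1* without D2 Sus replicate 3. Markers of pericytes and vascular smooth muscle had 0 of 8 calls and a median of -0.05. By line, their median was -0.13 in the D1 line with 0 calls and 0.15 in the D2 line, where 6 of 8 were above 0 and *Rgs5*, a pericyte regulator of G protein signalling, was called higher (0.16 ± 0.07, SE). No marker of either vascular list was at 0 in every input. In IPs, where endothelial RNA is depleted, *Ly6c1* was at most 1.14 CPM and *Flt1* at most 4.33 CPM, and 1 of the 10 was called, *Cldn5*, lower in D2-IP Sus (log2 difference -0.74 ± 0.32, SE).

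**Figure D3:**
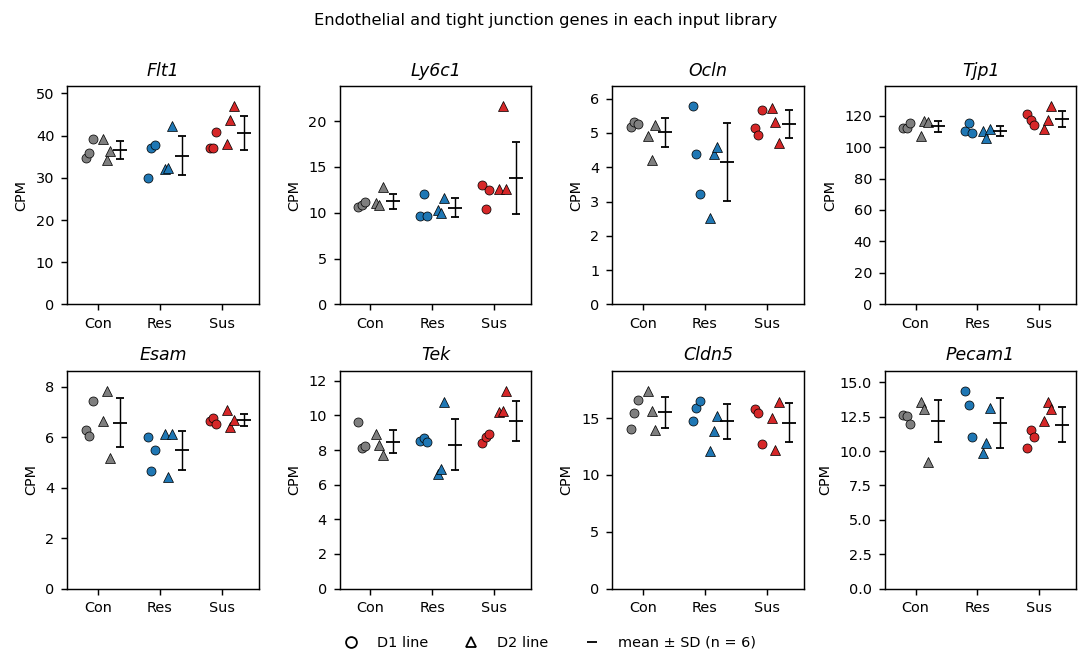
Normalised level (CPM, y axes from 0) of 8 endothelial and tight junction genes in each input, by stress group, with circles for the D1 line, triangles for the D2 line and mean ± SD of 6 libraries. *Esam* separates Sus (6.41 to 7.08 CPM) from Res (4.41 to 6.13 CPM), the D2 Sus libraries for *Tek* lie at 10.2 CPM or above, and *Cldn5* and *Pecam1* show no separation.

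As the called endothelial genes were higher together, the sequence upstream of their start sites is shown for 3 of the 4 with a RefSeq window, which differ in motif content (a CRE, a CCAAT box and no match), from RefSeq on GRCm38.p6. Each window holds 250 bases before to 50 bases after the annotated start, 5′ to 3′ on the gene's strand, and capitals mark matches to any of 5 motifs searched on both strands. The windows lie at chr5:147725962-147726261 (*Flt1*), chr15:75048788-75049087 (*Ly6c1*, the first of 2 windows listed) and chr7:65371195-65371494 (*Tjp1*), all on the minus strand.
Flt1: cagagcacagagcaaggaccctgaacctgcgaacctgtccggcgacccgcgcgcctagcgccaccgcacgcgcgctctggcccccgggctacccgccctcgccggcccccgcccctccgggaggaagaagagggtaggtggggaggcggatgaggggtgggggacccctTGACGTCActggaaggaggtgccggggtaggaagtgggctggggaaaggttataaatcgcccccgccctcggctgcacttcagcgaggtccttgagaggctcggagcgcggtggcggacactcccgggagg
Ly6c1: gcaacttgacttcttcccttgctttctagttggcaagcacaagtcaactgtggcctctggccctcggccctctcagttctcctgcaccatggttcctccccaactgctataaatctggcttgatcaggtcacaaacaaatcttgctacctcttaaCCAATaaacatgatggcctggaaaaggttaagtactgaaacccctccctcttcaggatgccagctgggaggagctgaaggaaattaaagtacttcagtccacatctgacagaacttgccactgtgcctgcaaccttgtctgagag
Tjp1: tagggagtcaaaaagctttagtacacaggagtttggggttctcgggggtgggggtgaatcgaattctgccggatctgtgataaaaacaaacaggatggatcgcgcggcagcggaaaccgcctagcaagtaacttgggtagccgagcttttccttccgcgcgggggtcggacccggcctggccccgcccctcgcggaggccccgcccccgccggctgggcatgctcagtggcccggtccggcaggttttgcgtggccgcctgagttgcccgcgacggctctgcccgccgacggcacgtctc

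The *Flt1* window holds a CRE, the full cAMP response element TGACGTCA, 81 bases before the start, which 1.79% of all 32851 windows hold. The *Ly6c1* window holds a CCAAT box (CCAAT), present in 37.4% of windows, and the *Tjp1* window holds no match to either motif, to the E-box CACGTG (7.15% of windows), to the heat shock element (0.603%) or to the glucocorticoid response element (0.0487%). *Ocln* has 2 windows, not printed, of which the second also holds a CCAAT box, on the opposite strand 25 bases before the start. The *Flt1* and *Tjp1* windows hold no CCAAT box. The GC content of the windows was 70.7% for *Flt1*, 49.0% for *Ly6c1* and 65.3% for *Tjp1*.

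Fibroblast genes ran the other way, in the D1 line, and their calls changed with single libraries. Of 9 markers of meningeal and perivascular fibroblasts, cells that make the collagen of the brain's coverings, 3 were called lower in Sus (33.3%, against 2.46% of all genes called lower), all 9 were below 0, and the median log2 difference was -0.54. The called genes were *Col1a2*, *Col3a1* and *Lum*, which encode fibrillar collagens and a proteoglycan that binds them. *Col1a2* had 5.76, 7.70 and 9.16 CPM in Sus and 7.24, 8.41 and 25.5 CPM in Res, and *Lum* had 0.14, 0.34 and 0.58 CPM in Sus and 0.19, 0.55 and 2.35 CPM in Res. The highest value of each was in D1 Res replicate 1, where the summed level of the 9 markers was 558.6 CPM, against 116.6 to 312 CPM in the other Res inputs and 145 to 209.9 CPM in Sus. None of the 9 was called without this library, and the list median was then -0.15. The number called was also 0 without D1 Sus replicate 1, with a median of -0.48, and 1 without D1 Sus replicate 3, with a median of -0.465, whereas it was 6 without D1 Res replicate 3, with a median of -0.70. It was 2 to 4 without any other library, and 1 in the 12 Sus and Res inputs alone or with a filter at a mean count of 50. The median was -1.06 in the D1 line, with 7 of 9 called lower (2.74% of all genes were), and 0.02 in the D2 line, with 0 called. *Serping1*, the complement C1 inhibitor, which fibroblasts also express, followed the same libraries, at 6.90 CPM in D1 Res replicate 1 and 4.21 CPM in D1 Res replicate 2 against at most 2.72 CPM elsewhere among Sus and Res (log2 difference -0.66, 95% interval -1.25 to -0.06). It was not called without D1 Res replicate 1 or without D1 Res replicate 2.

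Neuronal and glial identity genes did not separate Sus from Res. None was called of 12 genes shared by MSNs, 8 markers each of D1- and D2-MSNs, 7 of cholinergic and 10 of GABAergic interneurons, 10 of astrocytes, 10 of mature oligodendrocytes, 9 of their precursors and 10 of microglia. *Drd1* had 158, 202 and 226 CPM in Sus and 152, 187 and 206 CPM in Res (log2 difference 0.08, 95% interval -0.13 to 0.28), and *Drd2* had 80.4, 88.3 and 121 CPM in Sus and 64.8, 88.7 and 127 CPM in Res (0.02, -0.22 to 0.26). List medians ran from -0.04 for microglia to 0.19 for cholinergic interneurons. The microglial fractalkine receptor *Cx3cr1* differed by -0.02 (-0.15 to 0.10) and the myelin gene *Mbp* by 0.01 (-0.17 to 0.20). The 12 glutamatergic markers also had 0 calls, with a median of -0.35 and 11 of 12 below 0. *Slc17a7*, the vesicular glutamate transporter of cortical neurons, spanned 55.3 to 899 CPM in Sus and 207 to 974 CPM in Res (-0.47, -1.45 to 0.50), a spread within groups far beyond the difference between them. The median of this list was -0.04 without D1 Res replicate 3 and -0.54 without D2 Sus replicate 3. *Synpo2*, listed for the islands of Calleja, was called higher, at 4.78, 5.16 and 7.02 CPM in Sus and 3.39, 4.06 and 5.61 CPM in Res (0.37, 95% interval 0.09 to 0.64).

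**Figure D4:**
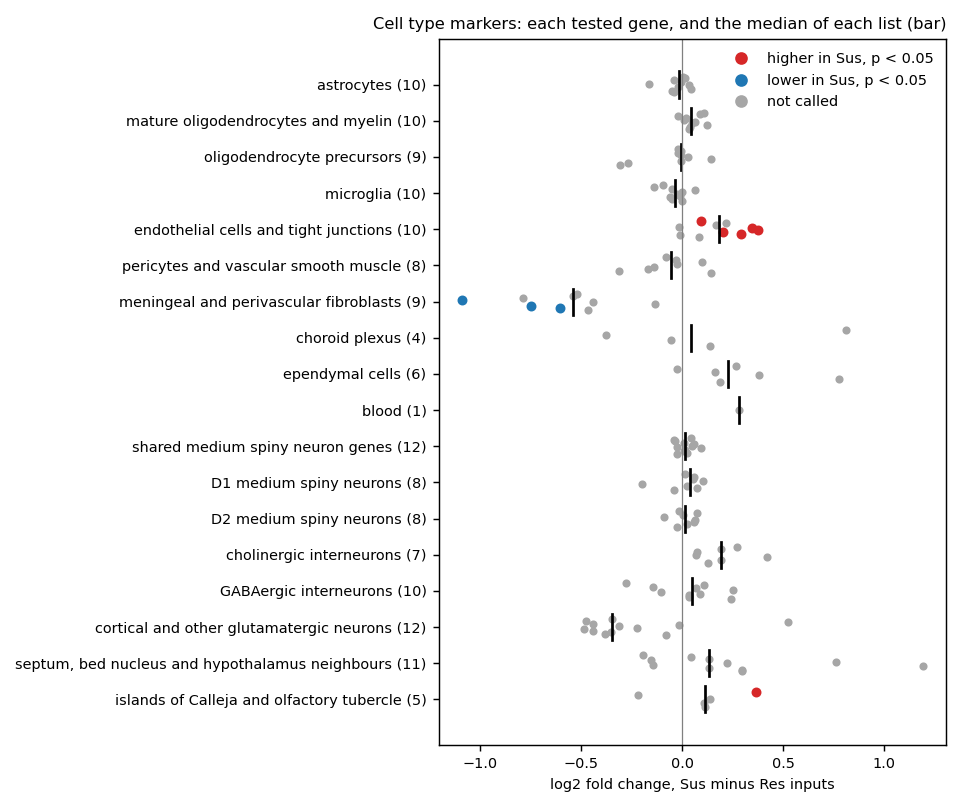
Log2 fold change of Sus minus Res inputs (x axis) for each tested marker of 18 cell type lists (number of genes tested in brackets), with a black bar at the median of each list and called genes in red (higher in Sus) or blue (lower). The endothelial list has 5 red points and the fibroblast list 3 blue points, while the lists of MSNs, interneurons, astrocytes, oligodendrocytes and microglia hold grey points only.

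Of 4 detected genes of the Y chromosome, 3 were called higher in Sus (against 3.1% of all genes): *Uty* and *Kdm5d*, histone demethylase genes, and *Eif2s3y*, a translation initiation factor. *Uty* had 17.5, 21.0 and 23.4 CPM in Sus and 14.6, 16.9 and 18.8 CPM in Res (log2 difference 0.30, 95% interval 0.11 to 0.49), with 0.51 ± 0.10 (SE) in the D1 line and 0.10 ± 0.10 in the D2 line. In the D1 line all 4 were called (5.6% of all genes were) and in the D2 line 0 (2.78%), but the interaction was called for *Uty* alone, at adjusted p = 0.999 (edgeR). *Ddx3y* was not called over both lines (0.10, 95% interval -0.08 to 0.28). Against Con, 0 of the 4 were called in Sus (4.48% of all genes were), with a median log2 difference of 0.03. In Res all 4 were below Con, with a median of -0.16, and *Uty* and *Eif2s3y* were called lower (3.22% of all genes were called). Both comparisons share the same Con libraries. D1 Res replicate 2 was lowest for all 4, and *Kdm5d* was at 21.9 CPM there against 30.4 CPM or more in every other input. The IP of the same pool was also lowest of all 28 IPs for *Kdm5d*, at 7.79 CPM with the next at 14.3 CPM, and for *Eif2s3y*, at 9.47 CPM with the next at 18.7 CPM. *Uty*, at 12.6 CPM, and *Ddx3y*, at 63.6 CPM, were not low in that IP. Without D1 Res replicate 2, *Eif2s3y* was no longer called, whereas *Uty* still was, and *Eif2s3y* was not called without D1 Res replicate 1 either. The number called of the 4 was 2 without either of these libraries. It was also 2 without D1 Sus replicate 2, D1 Sus replicate 3, D2 Res replicate 3 or D2 Sus replicate 3, and in the 12 Sus and Res inputs alone. It stayed at 3 without any other library. *Kdm5c*, the X-linked relative of *Kdm5d*, was called higher by 0.07 (95% interval 0.00 to 0.13).

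Genes that respond to neuronal activity or to stress hormones were called at about the rate of all genes or less. Among 22 immediate early genes 1 was called (4.55%), *Npas4*, an activity-induced transcription factor of neurons. *Npas4* had 12.4, 17.2 and 26.6 CPM in Sus and 19.9, 21.9 and 30.8 CPM in Res (log2 difference -0.35 ± 0.15, SE), with -0.58 ± 0.21 in the D1 line and -0.12 ± 0.20 in the D2 line. The highest Res value was in D1 Res replicate 3 and the highest Sus value in D2 Sus replicate 3, the libraries with the most glutamatergic marker RNA. With that marker level as a covariate the difference was -0.28 and still called, and without D1 Res replicate 3 it was -0.24 and not called. *Fos* and *Arc* were not called, and D2 Sus replicate 3 held their highest levels, 17.2 and 96.5 CPM, with the next Sus library at 7.52 and 52.6 CPM. None was called of 17 glucocorticoid-responsive genes, 7 genes of glucocorticoid and CRH receptors and ligands, 17 of dopamine signalling, 20 neuropeptides, 23 receptors of neuropeptides and monoamines, 11 neurotrophin genes and 24 genes studied in social defeat by others. Of the last list, *Bdnf* differed by -0.31 (95% interval -1.02 to 0.39), *Fosb* by 0.04 (-0.28 to 0.36), *Sirt1* by 0.08 (-0.12 to 0.28) and *Crh* by 0.30 (-0.32 to 0.92). These intervals leave room for sizeable changes in *Bdnf* and *Crh*, which were at 2.84 to 11.3 CPM and 2.09 to 10.1 CPM in Sus and Res. Of the 17 glucocorticoid-responsive genes, 14 were below 0, with a list median of -0.08. By line, 16 were below 0 in the D1 line (median -0.18) and 7 in the D2 line (median 0.04).

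Single genes were called in several other lists, 1 in each, where 5.56% of all genes were called, so that 1 call in lists of 13 to 24 genes is close to that share. *Grin2c*, an NMDA receptor subunit, was lower in Sus, at 41.8, 48.7 and 55.9 CPM against 48.1, 57.0 and 64.5 CPM in Res (log2 difference -0.21, 95% interval -0.37 to -0.05), and was the 1 called of 13 NMDA and metabotropic glutamate receptor genes. *Gabrg3*, a GABA-A receptor subunit, was higher, at 16.99, 18.04 and 21.0 CPM against 13.3, 16.4 and 17.2 CPM (0.21, 95% interval 0.06 to 0.36), and was the 1 called of 14 GABA receptor genes. The cholesterol synthesis gene *Dhcr7* (log2 difference 0.14, 1 of 18), the chaperone gene *Dnajb4* (0.12, 1 of 24) and the clock gene *Bhlhe41* (0.15, 1 of 19) were called higher. None was called of 16 AMPA and kainate receptor genes.

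The *Shisa* family, whose members at synapses are auxiliary proteins of AMPA receptors, had 0 calls among the 7 genes tested, all 7 below 0, with a median of -0.08. By line, where 8 were tested, all 8 were below 0 in the D1 line (median -0.14) and 3 in the D2 line (median 0.03). *Shisa6* had 14.2, 16.6 and 18.01 CPM in Sus, 13.8, 17.6 and 20.1 CPM in Res and 12.8, 16.0 and 17.0 CPM in Con, and the difference was -0.03 (95% interval -0.25 to 0.18). In ribosome-bound RNA of D1-MSNs the same gene was at 17.2 ± 1.96 CPM in Sus and 11.8 ± 1.92 CPM in Res (mean ± SD). The log2 difference was 0.55 ± 0.13 (SE), from 5 Sus and 4 Res IPs. It was called, as were 4.23% of all genes, though 0 of 14224 passed an adjusted p under 0.05 in D1-IPs (edgeR). In D2-MSNs *Shisa6* was at 9.42 ± 1.09 CPM in Sus and 9.82 ± 0.98 CPM in Res. *Shisa9*, at 128 to 142 CPM in Sus and 132 to 143 CPM in Res, did not separate the defeated groups (-0.01) but was called lower than Con in Sus (-0.12) and in Res (-0.11). *Shisa4* was called lower in the D1 line alone (-0.27 ± 0.09, SE), with a called interaction.

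Most genes of energy metabolism and of ribosomes had estimates slightly below 0, though few were called. The part of transcript length and GC content, taken up below, was not tested for these lists. Of 76 nuclear genes of oxidative phosphorylation 5 were called lower (6.58%, against 2.46% of all genes) and 0 higher, 65 were below 0, and the median was -0.05. *Ndufb2* of complex I had 19.97, 21.4 and 22.2 CPM in Sus and 21.1, 22.6 and 27.9 CPM in Res (log2 difference -0.14, 95% interval -0.27 to -0.02), and *Sdhb* of complex II differed by -0.10, *Uqcrc1* and *Uqcr10* of complex III by -0.07 each and *Atp5g1* of ATP synthase by -0.10. Of 82 cytosolic ribosomal protein genes 2 were called lower (2.44%, near the 2.46% of all genes), *Rplp0* (-0.09) and *Rps13* (-0.12), and 77 were below 0, with a median of -0.04. The count was 16 of 82 without D1 Res replicate 3, which had the lowest summed level of this list, and 0 of 82 without D2 Sus replicate 3 or without D2 Res replicate 2, and it was 11 with the glutamatergic marker level as a covariate. It was 6 without D2 Res replicate 3, 4 without D1 Sus replicate 3, 1 without D1 Res replicate 1, D1 Res replicate 2 or D1 Sus replicate 1, and 2 or 3 without the remaining libraries. For oxidative phosphorylation it was 11 of 76 without D1 Res replicate 3 or D2 Res replicate 3 and 10 without D1 Sus replicate 1. It was 1 without D1 Res replicate 1, D2 Res replicate 2 or D2 Sus replicate 1 and in the 12 Sus and Res inputs alone, 2 without D1 Sus replicate 2 or 3, and 4 to 6 without the remaining libraries. *Rpl3* was called lower in the D2 line (-0.39 ± 0.09, SE), at 301 to 317 CPM in D2 Sus and 396 to 412 CPM in D2 Res, whereas the D1 line differed by 0.09 ± 0.09, and the interaction was called. *Rpl3*, picked after its values were seen, was also called lower in D2-IP Sus (-0.14 ± 0.07), with part of these IPs from the same homogenates. It was the 1 call among 80 ribosomal protein genes there (1.25%, against 1.66% of all genes). Among the inputs, D1 Con replicate 1 lay within the D2 Sus range too, at 315.2 CPM.

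Differences went with transcript length and base composition across genes. Over the 14529 genes with an annotated length, the Spearman correlation of the Sus minus Res log2 fold change was 0.191 with transcript length and -0.315 with GC content. Genes called higher had a median length of 4878 bases and 44% GC, genes called lower 2403 bases and 54.7% GC, and all tested genes 3445 bases and 49.8% GC. The sign was the same in each line (GC: -0.258 in D1 and -0.183 in D2). Against the same Con libraries, the correlation with GC content was -0.105 for Sus minus Con and 0.253 for Res minus Con. With transcript length it was 0.143 for Sus minus Con and -0.0648 for Res minus Con. These correlations are across genes of the same libraries, which are not independent replicates, and carry no test. *Rn45s*, the precursor of ribosomal RNA, took 10.3 to 13.2% of the counts in Sus, 6.09 to 13.05% in Res and 2.40 to 12.0% in Con, and the Sus minus Res difference was 1.49 percentage points (two-sided exact permutation test within lines, p = 0.16; adjusted p = 0.425 over 5 library measures). In the D1 line alone it was 10.3 to 11.7% in Sus and 6.09 to 8.59% in Res, without overlap. The part of *Rn45s* and of RNA quality in the trend with GC was not tested, and with the *Rn45s* share as a covariate 732 genes were called.

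When the lines were taken apart, 843 of 15063 genes (5.6%) were called in the D1 line and 418 (2.78%) in the D2 line, with 0 at an adjusted p under 0.05 in either (edgeR). The calls of both lines shared 32 genes, 22 of them in the same direction, which are 3.8% of the D1 list and 7.66% of the D2 list. The line-by-stress interaction called 464 genes (3.08%), again 0 after adjustment, so that no single gene was shown to respond differently in the lines. Among interferon-induced genes, *Gbp2* and *Igtp*, GTPases of the response to interferon gamma, were called higher, a choice made after their values were seen, and they rested on 1 pool. *Gbp2* was at 17.2 CPM in D2 Sus replicate 2 and at most 3.00 CPM in every other Sus or Res input, and *Igtp* was at 12.4 CPM there and at most 3.00 CPM elsewhere. Without that library the log2 difference of *Gbp2* was 0.16 and that of *Igtp* 0.22, and neither was called. In the fixed list of interferon and antigen presentation genes 0 of 17 were called.

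The single detected gene of the blood list, *Alas2*, the erythroid enzyme that starts heme synthesis, did not separate Sus from Res but set both apart from Con. It had 1.82, 4.26 and 9.42 CPM in Sus, 3.09, 3.58 and 6.45 CPM in Res and 0.80, 1.23 and 1.53 CPM in Con. All 12 defeated libraries lay above all 6 Con libraries in both lines. The log2 difference was 2.02 for Sus minus Con (adjusted p = 0.228 by edgeR) and 1.74 for Res minus Con (adjusted p = 1 by edgeR), both against the same Con libraries, and 0.28 between Sus and Res (95% interval -0.42 to 0.98). The 4 haemoglobin genes of the list were at 0 counts in every input.

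**Figure D5:**
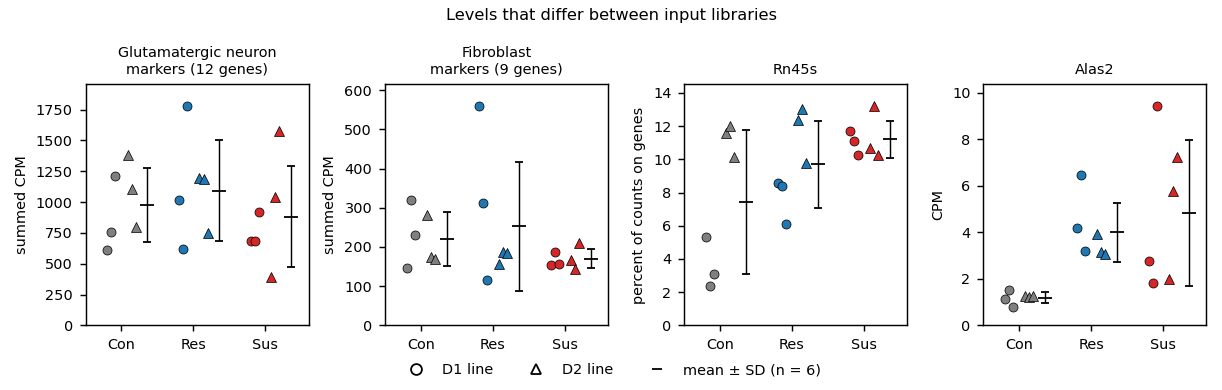
Levels in each of the 18 inputs by stress group, with y axes from 0: summed CPM of 12 glutamatergic neuron markers and of 9 fibroblast markers, the share of counts on *Rn45s* (percent) and *Alas2* (CPM), with circles for the D1 line, triangles for the D2 line and mean ± SD of 6 libraries. D1 Res replicate 1 stands out at 558.6 CPM of fibroblast markers, the glutamatergic markers spread from 389.7 to 1777 CPM, and *Alas2* lies at 0.80 to 1.53 CPM in Con and at 1.82 CPM or above in every defeated library.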

How the data were processed

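The deposited values are raw counts per gene symbol, which the authors made from poly-A selected, stranded libraries by trimming with cutadapt, aligning to mm10 with STAR and counting with HTSeq (versions, annotation and strand setting are not given in the sources used here). Of its entries, 24552 are genes and 5 name no gene (35.9 to 40.0% of reads in inputs) and were left out. Columns without a sample label (2) were not used. Sus and Res were compared in a model of all 18 inputs with line as covariate, by edgeR 4.0.16 (TMM, filterByExpr with a minimum count of 10, quasi-likelihood test) in R 4.3.3, with Benjamini-Hochberg adjustment. Lines were compared in a model of 6 group means, and IPs in a model of 28 libraries. CPM are counts scaled to effective library size after TMM, and a standard error follows from the F statistic. P-values measure the spread between pools, to which counting error adds for low genes (*Lum* had 3 to 44 counts per input). Replicates of a group differed beyond sampling noise in all 18 pairs. Alternatives were RLE, other filters, DESeq2 1.42.0, fewer samples, a replicate block, covariates and each library left out, of which the covariates and the removal of *Rn45s* were added after the data were seen. Named genes are the 15 with the smallest p in each direction with a mean of at least 1 CPM, called members and examples of each list and the *Shisa* family. *Adgrl4*, *Gbp2*, *Igtp* and *Rpl3* were picked after their values were seen. All lists were chosen with earlier results of these data known. The test was checked on simulated counts. Gene positions are from GENCODE vM21. Figures were drawn with matplotlib 3.10.9.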

Additional observations from a re-analysis of the deposited data

Results flagged for a closer look

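In 29 of 294 groups of 6 inputs examined, the highest or lowest library stood away from the other 5. The gap passed Dixon's 95% critical share of the group's range, which chance reaches in about 1 in 20 independent groups of normal values. Many of the genes examined were chosen by their values in these same libraries, and the groups share libraries. The count of 29 is therefore a description and cannot be read as an excess. D2 Sus replicate 2 was the highest Sus library for *Gbp2* (17.2 CPM), *Igtp* (12.4 CPM), *Ly6c1* (21.6 CPM), *Adgrl4* (16.8 CPM) and *Serping1* (2.72 CPM). D2 Sus replicate 3 was the highest for *Fos* (17.2 CPM), *Arc* (96.5 CPM) and *Shisa8* (6.16 CPM) and the lowest for *Rab39b* (52.7 CPM), D2 Sus replicate 1 was the lowest for *Shisa7* (280.8 CPM), and D1 Sus replicate 1 was the highest for *Gabrg3* (21.0 CPM). Among Res inputs, D1 Res replicate 1 was the highest for *Col1a2* (25.5 CPM), *Lum* (2.35 CPM) and *Ogn* (8.29 CPM). D1 Res replicate 2 was the lowest for *Armc7* (5.05 CPM) and *Ddx3y* (38.9 CPM) and the highest for *Alas2* (6.45 CPM). D1 Res replicate 3 was the highest for *Npas4* (30.8 CPM) and *Shisa8* (7.49 CPM) and the lowest for *Uqcr10* (43.3 CPM). D2 Res replicate 1 was the highest for *BC030336* (69.7 CPM), and D2 Res replicate 2 was the lowest for *Cdyl2* (24.3 CPM) and the deepest library, with 28179940 counts. In Con, D2 Con replicate 3 was high for *Ly6c1* (12.8 CPM), D2 Con replicate 2 low for *Ocln* (4.20 CPM), D1 Con replicate 2 high for *Dcn* (5.76 CPM) and low for *Dhcr7* (30.6 CPM), and D1 Con replicate 1 low for *Col3a1* (0.98 CPM) and *Rpl3* (315.2 CPM).

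The Sus minus Res difference itself differed between the D1 and the D2 line at an unadjusted p under 0.05 for 14 of 90 genes examined, with every adjusted p at 0.999 (edgeR). Over all genes, 464 of 15063 (3.08%) were called in this test. The 90 include genes chosen by their values in these same libraries, among them *Adgrl4*, *Gbp2*, *Igtp* and *Rpl3*. The count of 14 is therefore a description and cannot be read as an excess. The D1 minus D2 difference of log2 fold changes was 0.36 for *Asb3*, 1.199 for *1110015O18Rik*, 0.41 for *Uty* and 0.48 for *Rpl3*. It was -0.48 for *Sod3*, -0.45 for *Pecam1*, -0.57 for *Cdh5*, -0.42 for *Adgrl4*, -1.27 for *Col1a1*, -1.39 for *Col3a1*, -1.25 for *Serping1*, -0.33 for *Shisa4*, -2.45 for *Gbp2* and -1.66 for *Igtp*. The last pair rests on D2 Sus replicate 2, as given above.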

How the results depend on the processing

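No gene passed an adjusted p under 0.05 between Sus and Res under any alternative. The number of genes at an unadjusted p under 0.05, 818, was 603 to 942 with other normalizations, filters, samples or covariates, and 627 to 1536 with each library left out (higher 351 to 785, lower 270 to 751). The high end, 1536, was without D2 Sus replicate 3. In the D1 line the count was 575 to 1295 with each library left out (1295 without D1 Res replicate 2, 843 with all). In the D2 line it was 340 to 639 (630 without D2 Sus replicate 1 and 639 without D2 Sus replicate 3, 418 with all) and 220 when only the 6 D2 inputs entered. The interaction gave 389 to 1234 genes (753 without D1 Res replicate 2 and 1234 without D2 Sus replicate 1, 464 with all). The *Rn45s* difference was 0.76 to 2.15 percentage points and reached p = 0.04 (exact permutation) without D2 Res replicate 2, at 2.15. *Myh11*, at -0.139 and not called with all libraries, ran from -0.275 without D2 Sus replicate 1 to 0.402 without D1 Res replicate 1, where it was called higher. Of 60 called named genes 40 were called in every alternative, 20 lost the call in at least 1, and 0 reversed. As the 60 were selected by their p in this comparison and the alternatives share its libraries, these counts are descriptions, not separate support. Calls of *Col3a1* and *Lum*, as of *Col1a2*, were lost without D1 Res replicate 1 and *Bhlhe41* kept its call in 4 of 12 removals. Replicate numbers did not pair the samples (correlations of same-numbered deviations from -0.38 to 0.21), and a replicate block gave 837 genes and 0 after adjustment, with 9 ribosomal protein genes and 8 of oxidative phosphorylation called lower. The share of mitochondrial RNA could not be computed, as no such gene is listed. The causes of these shifts were not tested. Low genes such as *Tlr9* and *Lum* are limited by depth.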
